A study of Oryza sativa with 21 samples.

Results

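Photorespiration enzyme genes are 8 rice loci that code for enzymes between glycolate and glycerate, followed here in leaf RNA over 7 lines that differ in the gene NRP1. They were taken by identifier from a named list, and the rule holds no measured value, although earlier results of these data were known when the list was drawn up. All 8 of 8 were found among the 91080 gene identifiers of the count table, and all 8 passed the filter on low counts, which left 21044 genes. The loci are GLO1 (OS03G0786100), GLO4 (OS07G0152900), CATC (OS03G0131200), AGT1 (OS08G0502700), GDCP (OS01G0711400), GDCH (OS10G0516100), SHM1 (OS03G0738400) and HPR1 (OS02G0101500). Symbols for other loci come from general knowledge and could not be checked against an annotation, so each stands for the locus printed where it is first named. The numbering of the glycolate oxidase loci on chromosome 7 differs between naming schemes, and here the locus defines GLO4.

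RNA came from the second leaf from the top of field-grown plants at early heading, taken at about 9 in the morning, in 21 libraries of 3 per line. One line is labelled wild type (WT). By their labels 3 lines over-express NRP1, namely OE-2, OE-3 and OE-4. C-13, C-14 and C-16 are labelled as CRISPR/Cas9 knockouts of it. The title of the study calls NRP1 a negative regulator of photosynthesis. The sources used here do not give the promoter of the over-expression construct, the edits of the CRISPR lines or the cultivar, and nothing says that the 3 libraries of a line came from separate plants. P-values of the line and genotype contrasts against WT therefore measure the spread between libraries, which may be technical. Those of OE against CRISPR lines, and of ratios over line means, measure the spread between lines. Those of correlations treat all 7 line means as exchangeable, although 3 are of OE lines and 3 of CRISPR lines.

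Photorespiration begins when rubisco, the enzyme that fixes carbon dioxide, takes up oxygen instead, which yields phosphoglycolate. The plant recovers most of that carbon through a path across the chloroplast, the peroxisome and the mitochondrion. In the peroxisome, glycolate oxidase turns glycolate into glyoxylate and releases hydrogen peroxide, which catalase removes. Aminotransferases make glycine from glyoxylate, and in the mitochondrion the glycine decarboxylase complex and serine hydroxymethyltransferase make serine, with loss of carbon dioxide and ammonia. The serine returns to the peroxisome, where an aminotransferase and hydroxypyruvate reductase lead to glycerate. In a C3 leaf such as that of rice the path runs in the light, beside photosynthesis.

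The libraries held 13788243 to 19032786 counted reads, and the 8 genes together took 1.54 to 2.0% of them. A single one of the genes had between 1795 and 113572 reads in a library. Levels below are in CPM, the count scaled to a common library size by the trimmed mean of M-values (TMM). NRP1 (OS07G0471900) had 2.46 ± 0.53 CPM in WT (SD, n = 3 libraries), 332 ± 40 CPM in OE lines and 2.87 ± 0.60 CPM in CRISPR lines (SD, n = 3 line means). These counts check the OE labels. They do not check the CRISPR labels, since a transcript can remain after its gene is edited. Marker loci of other plant parts were low: summed levels ran from 11.1 to 29.6 CPM for 3 floral loci, 17.8 to 34.8 CPM for 3 root loci and 0.059 to 1.94 CPM for 3 secondary wall loci. The root loci LSI2 (OS03G0107300) and NRT2.1 (OS02G0112100) and the wall locus CESA7 (OS10G0467800) had no read. The 3 floral loci summed to 11.1 to 16.9 CPM in OE, 15.96 to 18.3 CPM in WT and 18.8 to 29.6 CPM in CRISPR libraries. Over all genes, WT replicate 3 and OE-3 replicate 1 stood apart from their line mates. The chi-square statistic between the counts of a pair of libraries, per gene, was 28.5 and 26.1 for WT replicate 3 against the other WT libraries and 10.6 between those. For OE-3 replicate 1 it was 24.2 and 16.3, against 11.99 between the other OE-3 libraries. In the other lines it ran from 5.62 to 19.997. Some of the results that change without these libraries are given with and without them. In bulk leaf RNA, fewer cells of a type and less RNA per cell cannot be told apart.

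Across the 21 libraries each of the 8 genes varied less than the median tested gene. All but AGT1 also varied less than the median of the most abundant genes. The distance between the lowest and the highest library was 0.39 on the log2 scale for GLO4, 0.49 for SHM1, 0.53 for HPR1, 0.54 for GLO1, 0.69 for GDCH and 0.71 for both CATC and GDCP, and it reached 0.98 for AGT1. The same distance had a median of 1.17 over all genes tested and of 0.83 over the top 5% of genes by mean level. By mean CPM the 8 genes lay between the 95.7th percentile of tested genes for GDCH and the 99.96th for GDCP. Gene lengths were not used, so levels are compared between samples only and not between genes.

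**Figure D1:**
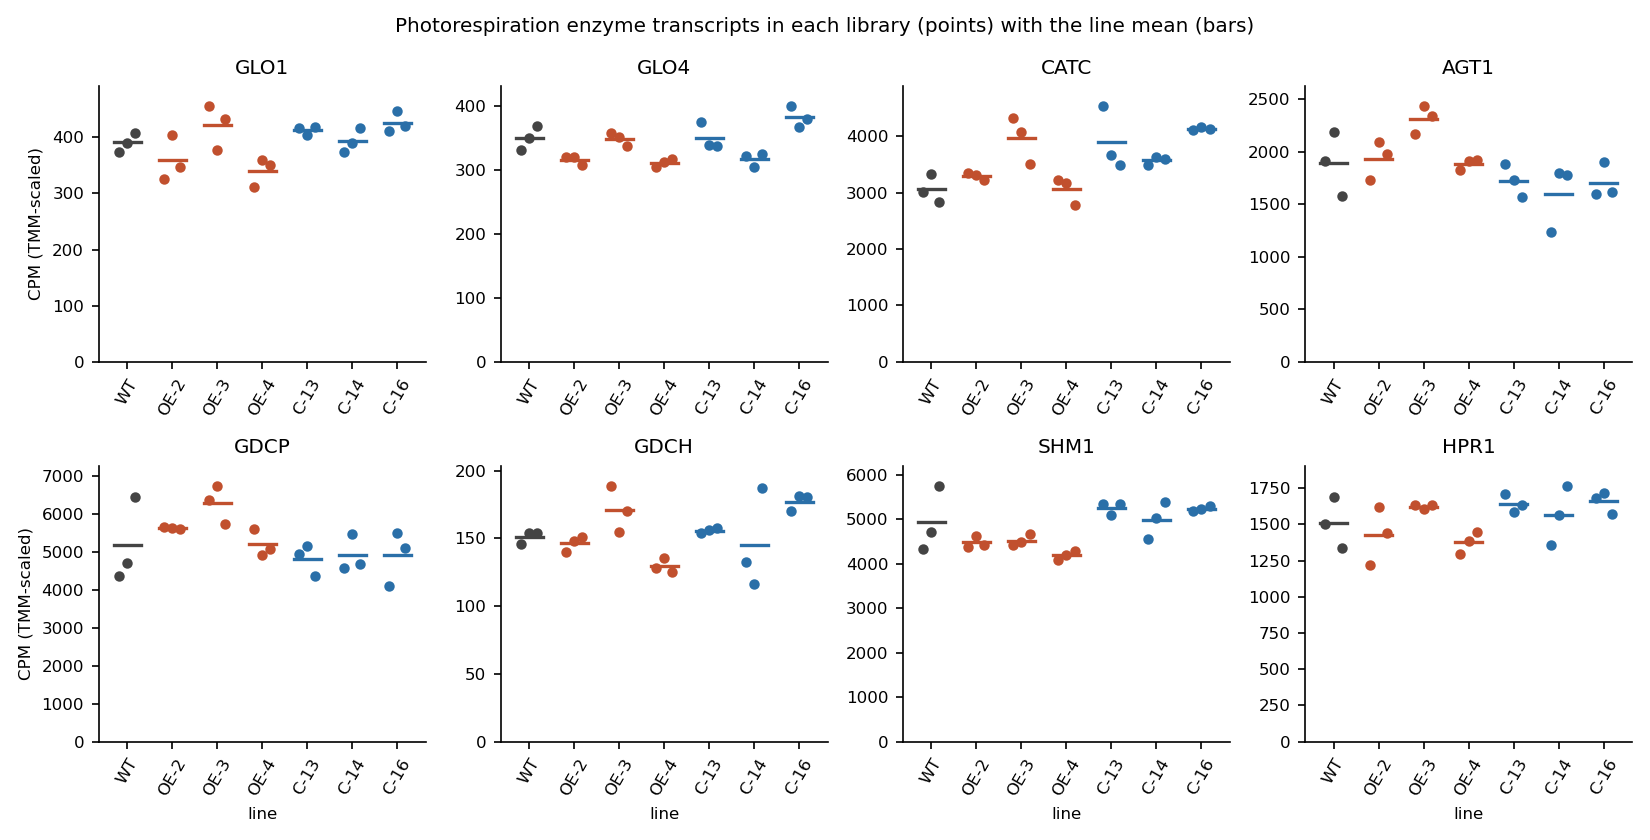
Transcript level of each of the 8 photorespiration enzyme genes in CPM after TMM scaling (vertical axes start at 0), by line. Points are the 3 libraries of a line and bars are their mean. CATC libraries of C-13, C-14 and C-16 lie between 3498 and 4531 CPM, above the WT libraries at 2837 to 3335 CPM.

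The peroxisomal oxidases were nearly level. GLO1, a glycolate oxidase, had 374, 389.9 and 408 CPM in the WT libraries. The OE libraries gave 326, 404 and 347 CPM in OE-2, 455, 377 and 432 CPM in OE-3, and 312, 359 and 349.8 CPM in OE-4. The CRISPR libraries gave 417, 404 and 418 CPM in C-13, 374, 389 and 416 CPM in C-14, and 411, 446 and 420.2 CPM in C-16. The order of line means ran from OE-4 at the bottom to C-16 at the top, with WT inside it, and each line overlapped the next. GLO4, another glycolate oxidase, had 331, 349 and 369 CPM in WT. Its OE values were 319.5, 319 and 308 CPM in OE-2, 358, 351 and 337 CPM in OE-3, and 305, 312 and 317 CPM in OE-4. Its CRISPR values were 374, 338 and 337 CPM in C-13, 321, 305 and 325 CPM in C-14, and 399, 367 and 379.9 CPM in C-16. Here the groups overlapped too, and C-14 lay with OE-2 and OE-4 below the other lines. Between neighbours in the order only C-14 and OE-3 were separate.

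CATC, the catalase that removes peroxide in leaf peroxisomes, showed a clearer order. The WT libraries had 3005, 3335 and 2837 CPM. The OE libraries had 3353, 3313 and 3217 CPM in OE-2, 4319, 4075 and 3517 CPM in OE-3, and 3224, 3178 and 2774 CPM in OE-4. The CRISPR libraries had 4531, 3671 and 3499 CPM in C-13, 3498, 3631 and 3602 CPM in C-14, and 4106, 4159 and 4122 CPM in C-16. All 9 CRISPR libraries and all 3 OE-3 libraries lay above every WT library, while OE-2 and OE-4 overlapped WT. Between neighbours in the order, ranges were separate only from OE-2 to C-14.

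AGT1, a peroxisomal aminotransferase that takes its amino group from serine, had another order of lines. WT had 1911, 2185 and 1576 CPM. The OE libraries gave 1733, 2093 and 1979 CPM in OE-2, 2169.8, 2432 and 2341 CPM in OE-3, and 1826, 1915 and 1924 CPM in OE-4. The CRISPR libraries gave 1879.9, 1730.4 and 1567 CPM in C-13, 1233, 1794 and 1780.0 CPM in C-14, and 1598, 1904 and 1617 CPM in C-16. All 3 CRISPR lines had lower means than the other lines, OE-3 had the highest, and only the OE-3 range was separate from its neighbour, OE-2. OE and CRISPR libraries overlapped, because some OE libraries lay among the higher CRISPR libraries.

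The mitochondrial step holds 3 of the genes. GDCP, the P protein of glycine decarboxylase, which binds glycine and releases its carbon dioxide, had 4354, 4706 and 6447 CPM in WT. The OE libraries gave 5665, 5617 and 5614 CPM in OE-2, 6368, 6729 and 5741 CPM in OE-3, and 5614, 4930.0 and 5085 CPM in OE-4. The CRISPR libraries gave 4941, 5151 and 4376 CPM in C-13, 4574, 5471 and 4679.7 CPM in C-14, and 4114, 5496 and 5106 CPM in C-16. The 3 OE lines had higher means than the 3 CRISPR lines, and WT spanned nearly the whole range through its replicate 3. The only separate neighbours were OE-2 and OE-3.

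GDCH codes for the H protein, which carries the aminomethyl group between the other proteins of the complex. It had 146, 154 and 154 CPM in WT. In the OE lines it had 140.0, 148 and 151 CPM in OE-2, 189, 155 and 171 CPM in OE-3, and 128, 136 and 125 CPM in OE-4. In the CRISPR lines it had 154, 156 and 157 CPM in C-13, 132, 117 and 187 CPM in C-14, and 170.1, 181 and 181 CPM in C-16. OE-4 was lowest and C-16 highest by line mean, and no neighbours were separate.

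SHM1, the mitochondrial serine hydroxymethyltransferase that joins a carbon unit to glycine, had 4343, 4725 and 5746 CPM in WT. The OE libraries gave 4389, 4635 and 4431 CPM in OE-2, 4417, 4485 and 4664 CPM in OE-3, and 4085, 4195 and 4298 CPM in OE-4. The CRISPR libraries gave 5348, 5097 and 5354 CPM in C-13, 4554, 5039 and 5393 CPM in C-14, and 5186, 5239 and 5306 CPM in C-16. All OE libraries lay at or below 4664 CPM, and of the CRISPR libraries 1 of C-14 lay below that value. HPR1, the peroxisomal hydroxypyruvate reductase that makes glycerate, had 1503, 1690.1 and 1336 CPM in WT. Its OE values were 1222, 1623 and 1438 CPM in OE-2, 1634, 1605 and 1632 CPM in OE-3, and 1296, 1387 and 1446 CPM in OE-4. Its CRISPR values were 1709, 1585 and 1635 CPM in C-13, 1356, 1568 and 1764 CPM in C-14, and 1686, 1718 and 1576 CPM in C-16. For HPR1 every line overlapped the next in order, and for SHM1 only OE-4 and OE-2 were separate.

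Knockout lines were compared with WT to ask whether the labelled loss of NRP1 goes with a change in these transcripts. CATC rose, and it was the only one of the 8 genes to pass the test. Knockouts held 1.26-fold the WT level (log2 fold change 0.34, SE 0.09), with an adjusted p of 0.0198 in edgeR's quasi-likelihood test. That is 1 of 8, beside 11.7% of all 21044 genes called in either direction. Adjusted p-values follow Benjamini and Hochberg over all genes tested, and a gene is called when its value is under 0.05. CATC was also the only one of the genes with all 9 CRISPR libraries above all 3 WT libraries, a pattern shown by 4% of tested genes. The call ended without WT replicate 1 (adjusted p = 0.0901, edgeR), without WT replicate 3 (0.0862) and without the line C-16 (0.12). With counts summed per line it also ended (adjusted p = 0.521, log2 fold change 0.29). Of the marker loci of other plant parts, the 3 that passed the filter were called higher in CRISPR lines too, namely the floral MADS1 (OS03G0215400, 1.41-fold), the root LSI1 (OS02G0745100, 1.51-fold) and the wall CESA4 (OS01G0750300, 3.18-fold), with edgeR adjusted p = 0.0065, 0.0109 and 0.0184. The 3 root loci summed to 17.8 to 22.4 CPM in WT and 24.1 to 34.8 CPM in CRISPR libraries, and the 3 wall loci to 0.139 to 0.569 CPM and 0.478 to 1.94 CPM. In OE libraries the root loci summed to 21.8 to 33.9 CPM and the wall loci to 0.059 to 0.732 CPM. The higher LSI1 level was not particular to CRISPR lines. It was at 1.35-fold of WT in OE lines, not called, and at 1.40-fold in OE-3, called by edgeR. Of 4 leaf senescence marker loci, NAP (OS03G0327800, 0.653-fold) and RCCR1 (OS10G0389200, 0.613-fold) were called lower in CRISPR lines, with edgeR adjusted p = 0.006 and 0.0138. The other senescence loci, SGR (OS09G0532000) and NYC1 (OS01G0227100), were not called. The part of these markers in the CATC result was not tested.

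The other 7 genes had fitted levels in CRISPR lines between 0.887-fold (AGT1, log2 fold change -0.17, SE 0.11) and 1.07-fold (HPR1, log2 fold change 0.10, SE 0.09) of WT. The bounds of their intervals of 2 SE ran from 0.76-fold for AGT1 to 1.22-fold for HPR1. For GDCP the fitted level was 0.944-fold (adjusted p = 0.672, edgeR) and for SHM1 it was 1.05-fold (0.642). Their sign was not stable. Over 30 alternatives the log2 fold change ran from -0.19 to 0.11 for GDCP and from -0.02 to 0.19 for SHM1. A miss of the threshold does not show that these levels were equal.

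The over-expression lines were compared with WT in the same fit, and 0 of 8 genes were called by edgeR, beside 4.67% of all genes. One of the 8, SHM1, had an unadjusted p under 0.05, with a fitted level of 0.891-fold that of WT (log2 fold change -0.17, SE 0.08, edgeR adjusted p = 0.231). Over 30 alternatives this log2 fold change of SHM1 ran from -0.25 to -0.04. CATC was at 1.12-fold (SE 0.09, edgeR adjusted p = 0.302). GDCP stood at 1.1-fold (adjusted p = 0.509) and AGT1 at 1.08-fold (adjusted p = 0.627), both in edgeR. GLO1, GLO4, GDCH and HPR1 lay between 0.929-fold and 0.979-fold. DESeq2's Wald test also called 0 of 8, beside 7.26% of all genes.

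**Figure D2:**
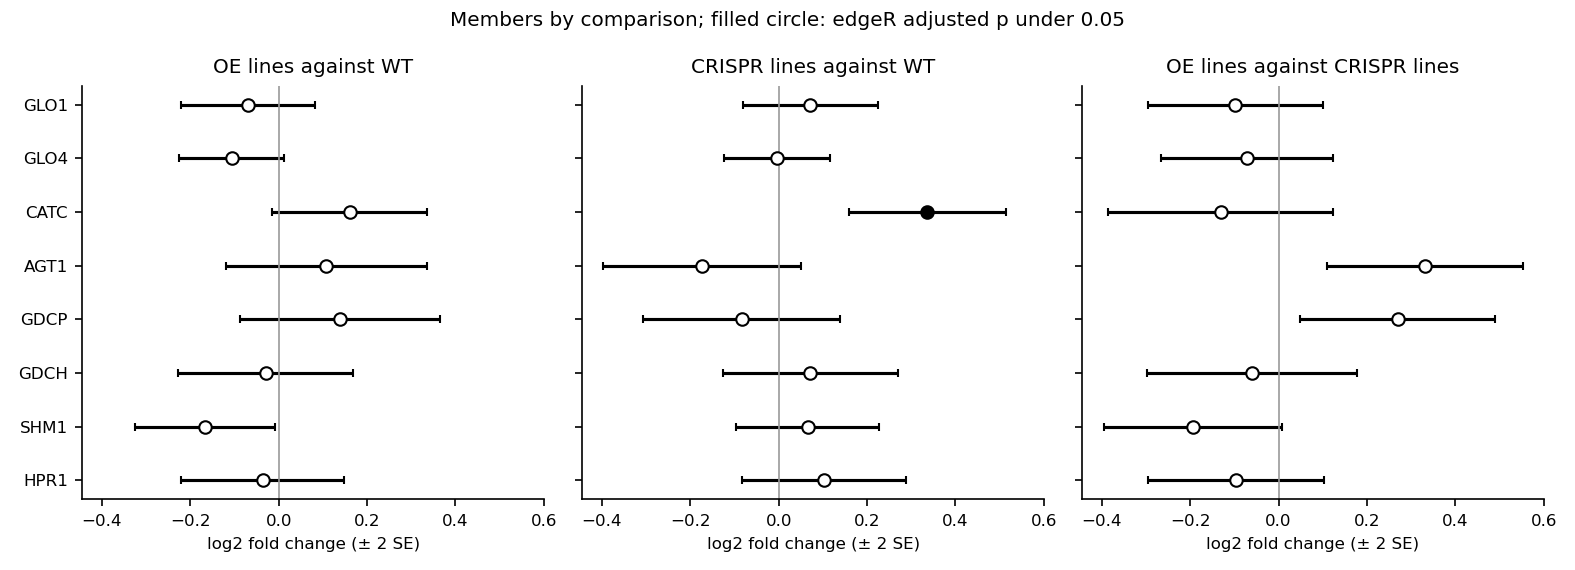
Fitted log2 fold change of the 8 genes (horizontal axis) in OE lines against WT, CRISPR lines against WT and OE against CRISPR lines, with bars of 2 SE. Filled circles mark an edgeR adjusted p under 0.05. CATC in CRISPR lines against WT, at 0.34, is the only filled circle.

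Line by line, CATC was again the only gene called. It rose in OE-3, at 1.30-fold of WT (log2 fold change 0.38, edgeR adjusted p = 0.0197), where 18.9% of all genes were called. It rose in C-16, at 1.35-fold (log2 fold change 0.43, edgeR adjusted p = 0.022), where 6.38% were called. In C-13 its fitted level was 1.27-fold (edgeR adjusted p = 0.058, with 6% of genes called) and in C-14 it was 1.17-fold (adjusted p = 0.241, with 3.16% called). In OE-2 it was 1.08-fold (adjusted p = 0.648, with 2.04% called) and in OE-4 it was 1.00-fold (adjusted p = 1.000, with 0.58% called). CATC was thus called higher in a line labelled as over-expressing NRP1 and in a line labelled as a knockout of it. Both calls ended when only the lines compared entered the fit (edgeR adjusted p = 0.195 for OE-3 and 0.0958 for C-16). Leaving out WT replicate 1 (0.08), WT replicate 3 (0.0589), C-16 replicate 1 (0.0626) or C-16 replicate 3 (0.0763) also ended the C-16 call. The OE-3 call ended without WT replicate 3 (0.083) or OE-3 replicate 1 (0.104). Without WT replicate 3, GDCP was called higher in OE-3 (log2 fold change 0.47, edgeR adjusted p = 0.0259, against 0.28 and 0.158 with it). In the main fit some genes had an unadjusted edgeR p under 0.05 without being called. They were CATC in C-13 and in C-14, AGT1 in OE-3, and GLO1, GLO4 and SHM1 in OE-4.

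Whether lines of 1 genotype differ was tested over the 3 OE lines and over the 3 CRISPR lines. Among the OE lines 0 of 8 genes were called, beside 9.82% of all genes. The lowest edgeR adjusted p was 0.0562 for CATC, and OE-3 held the highest mean of the OE lines for each of GLO1, GLO4, CATC, AGT1, GDCP, GDCH, SHM1 and HPR1. DESeq2's likelihood ratio test called 3 of the 8, beside 14.1% of all genes. Among the CRISPR lines edgeR called 0 of 8, beside 0.442% of all genes, and the DESeq2 test called 1, beside 1.04%.

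OE and CRISPR lines were then set against each other, with reads summed per line and 3 lines on each side. The 2 genes with a fitted OE level above the CRISPR level were AGT1, at 1.26-fold the knockout level (log2 fold change 0.33, SE 0.11, edgeR adjusted p = 0.0765), and GDCP, at 1.21-fold (log2 fold change 0.27, SE 0.11, adjusted p = 0.131). Neither passed, so 0 of 8 were called by edgeR, beside 17.4% of 22553 genes, and these were the only 2 with an unadjusted p under 0.05. DESeq2's Wald test called both, with adjusted p = 0.0286 for AGT1 and 0.0492 for GDCP, and it called 20.6% of all genes. The remaining 6 had fitted levels in OE lines below those in CRISPR lines, from 0.874-fold for SHM1 (adjusted p = 0.219, edgeR) to 0.959-fold for GDCH (adjusted p = 0.766). Single libraries of all 7 lines, which treat libraries of a line as independent, gave 5 called genes, namely GLO1, CATC, AGT1, GDCP and SHM1, where 42.3% of all genes were called. Among the marker loci of other plant parts, MADS1 (0.591-fold) and CESA4 (0.311-fold) were called lower in OE than in CRISPR lines, with edgeR adjusted p = 0.0073 and 0.0304. Their part in the AGT1 and GDCP values was not tested.

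Over the 7 line means of log2 CPM, the levels of AGT1 and GDCP followed each other (Pearson r = 0.93, exact permutation p = 0.00198, adjusted p = 0.0278 over 28 pairs). Spearman's rho was 0.857 (exact permutation p = 0.0238, adjusted p = 0.0556). Without the 2 lines farthest from the median of AGT1, C-14 and OE-3, r was 0.889. GLO1 and HPR1 were the other pair to pass (r = 0.98, adjusted p = 0.0167, rho = 0.964 with adjusted p = 0.0389, exact permutation tests), and r was 0.94 without OE-2 and OE-4. By rho the pairs to pass were GLO1 with HPR1 and GLO1 with CATC (rho = 0.964, adjusted p = 0.0389, exact permutation test), so AGT1 with GDCP passed by r alone. Another 4 pairs, all among the other 6 genes, had an adjusted p of 0.05 by r, at the threshold. The count of pairs that passed depended on single lines, from 0 without OE-4 or without C-16 to 6 without C-14. It was also 6 without WT replicate 3 and 6 without OE-3 replicate 1. Each genotype has only 3 lines, so no r was computed within a genotype. Differences between OE, CRISPR and WT lines therefore enter each r and its p, and their part was not tested.

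The other 6 genes had r between 0.55 and 0.98 among themselves, with a median of 0.81 over 15 pairs. AGT1 or GDCP against any of those 6 gave a median r of -0.06 over 12 pairs, with a range from -0.65 to 0.22. This division was seen in the data, and it is given without a test. Within lines it was different: deviations of single libraries from their line mean gave r = -0.00 for AGT1 with GDCP and 0.56 for GLO1 with HPR1. The highest within-line value, 0.82, was that of AGT1 with HPR1, and GDCP with SHM1 had 0.52, so both of these pairs cross the division seen over line means. All these values share libraries and scaling factors.

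**Figure D3:**
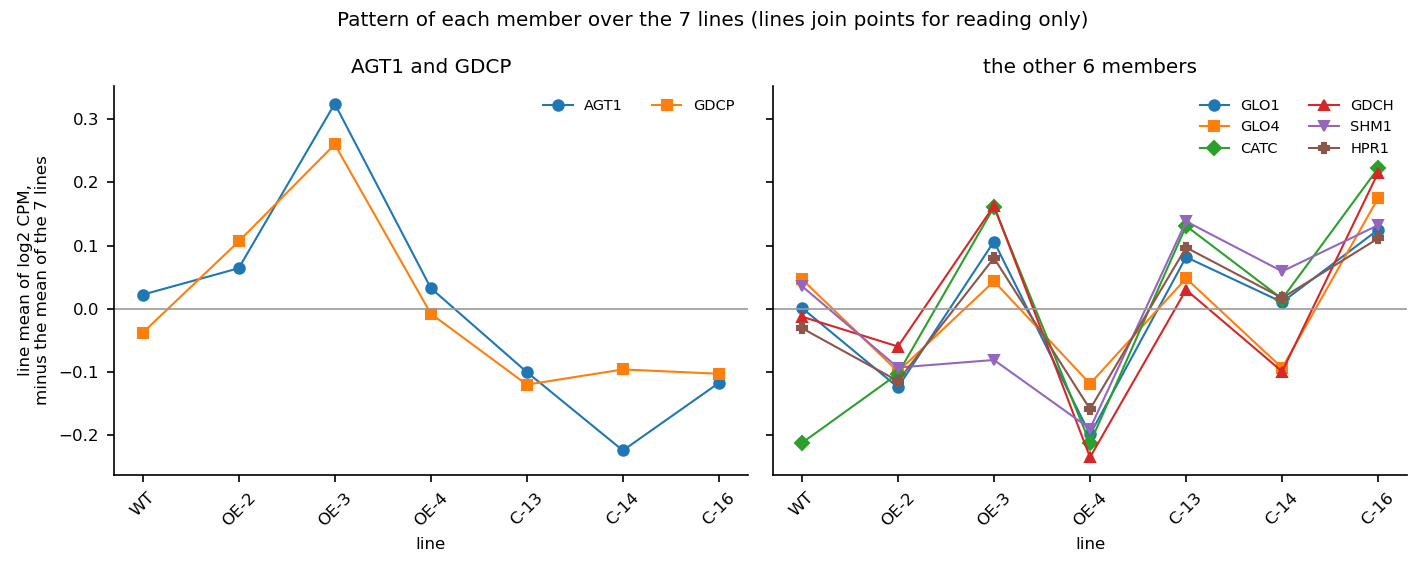
Line mean of log2 CPM for each gene, minus its mean over the 7 lines (vertical axis), by line. Connecting strokes join points for reading only. AGT1 and GDCP (left) have higher means in each OE line than in any CRISPR line, and the other 6 genes (right) have OE-4 at or near the bottom and C-16 at or near the top.

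A ratio of read counts of 2 genes inside 1 library does not depend on the scaling of libraries. Such ratios were computed for all 28 pairs of the 8 genes, after the pattern above had been seen. The 9 OE libraries and the 9 CRISPR libraries did not overlap for 5 pairs. These are GDCP to SHM1 and the ratios of AGT1 to HPR1, SHM1, GLO1 and CATC. Each of the 5 held AGT1 or GDCP, and 12 of the 28 pairs set AGT1 or GDCP against another member. Of all tested genes set against a single one of the 8, from 2.99% (GDCH) to 11.4% (SHM1) separated OE from CRISPR libraries. The share was 5.73% for GLO1 and 5.23% for CATC.

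The ratio of GDCP to SHM1, which act in sequence on glycine, was 1.00, 0.996 and 1.12 in WT. It was 1.29, 1.21 and 1.27 in OE-2, 1.44, 1.5 and 1.23 in OE-3, and 1.37, 1.18 and 1.18 in OE-4. It was 0.924, 1.01 and 0.817 in C-13, 1.00, 1.09 and 0.868 in C-14, and 0.793, 1.05 and 0.962 in C-16. Every OE library lay above every WT and every CRISPR library, and WT overlapped CRISPR. The mean was 1.04 ± 0.07 in WT (SD, n = 3 libraries), 1.30 ± 0.08 in OE lines and 0.946 ± 0.036 in CRISPR lines (SD, n = 3 lines). The OE lines were 1.37-fold the CRISPR lines and 1.24-fold WT. An exact two-sided permutation of lines gave p = 0.1 for OE against CRISPR, the smallest that 3 against 3 allow. That p follows from the separation of the libraries, so it is no further support. The line means were separate for 12 of the 28 pairs, and the adjusted p of this permutation over 28 pairs was 0.233. Ratios to SHM1 with OE libraries apart from both other groups occurred for 1.86% of all genes, and those with OE apart from CRISPR for 11.4%. Among the 7 other photorespiration enzyme genes the first was seen for GDCP and the second for GDCP and AGT1.

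The ratio of AGT1 to HPR1, which handle serine and then hydroxypyruvate in the peroxisome, separated CRISPR from both other groups. It was 1.27, 1.29 and 1.18 in WT. The OE libraries gave 1.42, 1.29 and 1.38 in OE-2, 1.33, 1.52 and 1.43 in OE-3, and 1.41, 1.38 and 1.33 in OE-4. The CRISPR libraries gave 1.10, 1.09 and 0.959 in C-13, 0.909, 1.14 and 1.01 in C-14, and 0.948, 1.11 and 1.03 in C-16. The highest CRISPR library stood at 1.14 and the lowest WT library at 1.18. Means were 1.25 ± 0.06 in WT (SD, n = 3 libraries), 1.39 ± 0.03 in OE lines and 1.03 ± 0.02 in CRISPR lines (SD, n = 3 lines), a 1.35-fold difference between OE and CRISPR lines (exact permutation over lines, p = 0.1). Here too that p follows from the separation of the libraries. Of all genes set against HPR1, 5.47% separated OE from CRISPR libraries and 6.57% separated CRISPR from WT libraries.

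AGT1 to SHM1 differed by 1.43-fold between OE and CRISPR lines, with means of 0.464 and 0.324, and WT spanned both at 0.274 to 0.462. AGT1 to GLO1 differed by 1.35-fold. AGT1 to CATC was 0.615 in WT, 0.599 in OE lines and 0.435 in CRISPR lines, with every CRISPR library below every WT and OE library. For AGT1, 4 of the 7 ratios to other genes of the set separated OE from CRISPR libraries, beside 6.72% of all genes set against AGT1. For ratios to CATC, 2 of 7, those of AGT1 and GLO4, separated CRISPR from WT libraries. All tested genes set against CATC did so in 20.6% of cases.

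**Figure D4:**
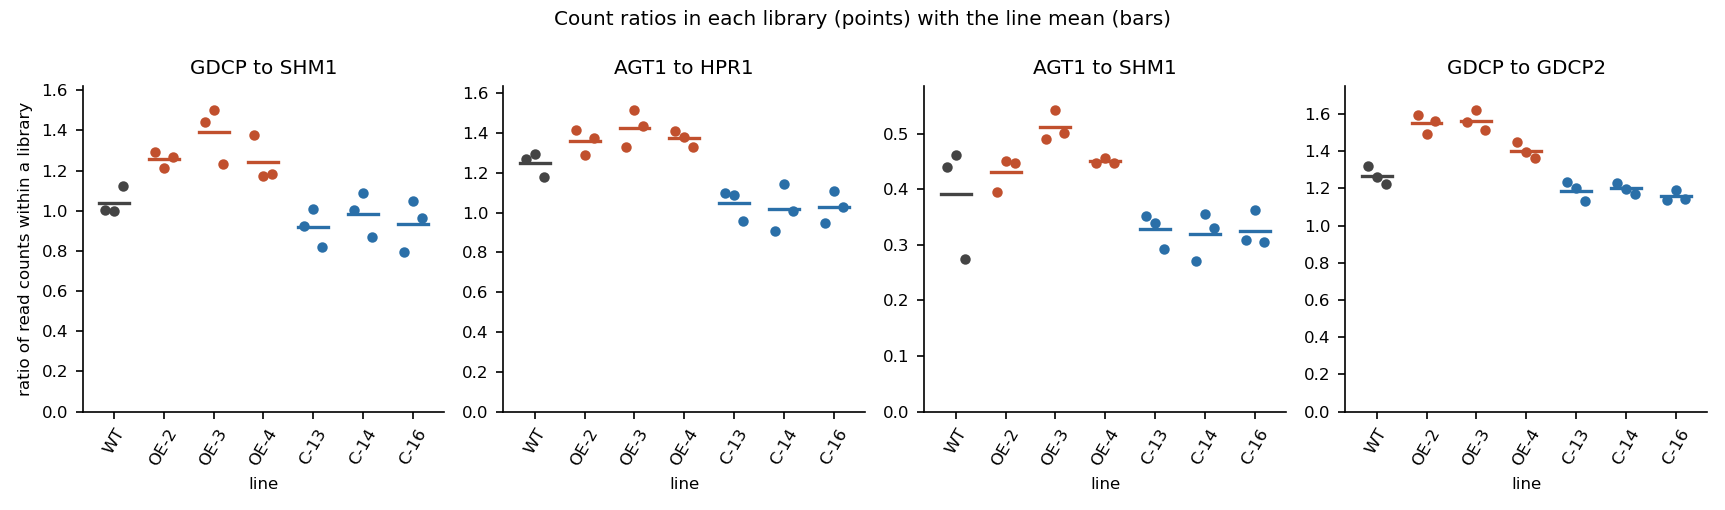
Ratio of read counts of 2 genes within each library (vertical axes from 0), by line, with points for the 3 libraries and bars for the line mean. For GDCP to SHM1 the OE libraries lie at 1.18 to 1.5, above all WT and CRISPR libraries, and for AGT1 to HPR1 the CRISPR libraries lie at 0.909 to 1.14, below all others.

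Other steps of the same path were counted from a list of 7 loci, all tested: PGLP1 (OS04G0490800), GGT1 (OS07G0108300), GDCT (OS04G0623800), GDCL (OS01G0328700), GLYK (OS01G0682500), GS2 (OS04G0659100) and Fd-GOGAT (OS07G0658400). In CRISPR lines against WT, 1 of 7 rose and 0 fell, beside 11.7% of all genes called in either direction. Without OE-3 replicate 1 the count called was 2. The locus called in the main fit was PGLP1, the phosphoglycolate phosphatase that feeds glycolate into the path. PGLP1 was at 1.17-fold (log2 fold change 0.23, SE 0.07, edgeR adjusted p = 0.0499). It had 1375, 1446 and 1646 CPM in WT and between 1621 and 1887 CPM in the CRISPR libraries, so the groups overlapped. The PGLP1 call held in 5 of 30 alternatives, whose edgeR or DESeq2 adjusted p ran from 0.0161 to 0.585. GDCL, the dihydrolipoyl dehydrogenase that is the L protein, was at 1.29-fold (adjusted p = 0.0533, edgeR) and GDCT, the T protein that hands a carbon unit to folate, at 1.17-fold (adjusted p = 0.0777). Fd-GOGAT, the ferredoxin-dependent glutamate synthase that works with glutamine synthetase to recapture ammonia, lay on the other side at 0.88-fold (adjusted p = 0.218, edgeR).

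In OE lines against WT, 0 of these 7 were called by edgeR, beside 4.67% of all genes. Fd-GOGAT was farthest from WT at 0.843-fold (edgeR adjusted p = 0.136). In OE against CRISPR lines 0 of 7 were called by edgeR too, beside 17.4% of all genes. GDCL was at 0.79-fold (edgeR adjusted p = 0.0722) and PGLP1 at 0.813-fold (adjusted p = 0.0809). The number of the 7 called in OE against CRISPR lines was 3 without OE-3 and 2 without OE-3 replicate 1. Of the glycine decarboxylase loci, GDCP had a fitted OE level above the CRISPR level, while GDCL, GDCT (0.872-fold, adjusted p = 0.284), GDCH and a further P protein locus, GDCP2 (OS06G0611900, 0.946-fold, adjusted p = 0.609), had one below it. None of these differences passed edgeR's test. In CRISPR lines against WT, the median log2 fold change was 0.07 over the 8 genes, 0.12 over these 7 loci and 0.01 over all genes tested. For 15 Calvin-Benson cycle loci it was 0.34, and 8 of those rose, beside the 11.7% of all genes called. That count was 1 without WT replicate 1, 2 without WT replicate 3, 2 without C-13, 1 without C-16 and 0 with counts summed per line. For OE against CRISPR lines the medians were -0.08 (the 8 genes), -0.14 (the 7), -0.29 (the 15 Calvin-Benson loci) and 0.01 (all genes tested). Of the 15 loci 4 were called lower, beside 17.4% of all genes called in either direction. The number of the 15 called was 0 without OE-2, C-13, C-14 or C-16, 1 without OE-3 replicate 2 and 8 without OE-3.

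Further gene copies of the same enzymes were counted from a list of 5 loci, GLO3 (OS04G0623500), GLO5 (OS07G0616500), CATA (OS02G0115700), CATB (OS06G0727200) and GDCP2 (OS06G0611900). Against WT, 0 of 5 were called by edgeR in either genotype, beside 4.67% of all genes in OE and 11.7% in CRISPR lines. In CRISPR lines CATB was at 0.833-fold (edgeR adjusted p = 0.0514) and CATA at 0.499-fold (adjusted p = 0.128), and both had an unadjusted p under 0.05. The count for CRISPR lines was 1 of 5 without WT replicate 3 and 1 of 5 without OE-3 replicate 1. Over 30 alternatives of that contrast, CATB was called in 9 and CATA in 3. Between OE and CRISPR lines, 3 of 5 were called, all higher in OE lines, beside 17.4% of all genes. CATA, another catalase, was 2.63-fold higher (log2 fold change 1.39, SE 0.24, edgeR adjusted p = 0.0086). GLO5 was 1.30-fold higher (log2 fold change 0.38, SE 0.08, adjusted p = 0.0153) and CATB 1.20-fold (log2 fold change 0.27, SE 0.07, adjusted p = 0.0411), both in edgeR. The CATA call held in all 30 alternatives run, that of GLO5 in 26 and that of CATB in 16. Without single lines the GLO5 call ended for OE-2, C-13, C-14 and C-16, and that of CATB for each of the 6 lines. CATC, the catalase of the set, had a fitted level in OE lines of 0.913-fold (SE 0.13, edgeR adjusted p = 0.511).

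CATA had 111, 134 and 23.2 CPM in WT. It had 39.6, 88.0 and 128 CPM in OE-2, 169, 139.7 and 174 CPM in OE-3, and 69.1, 115 and 117 CPM in OE-4. It had 68.3, 40.8 and 29.3 CPM in C-13, 24.3, 40.6 and 96.1 CPM in C-14, and 35.6, 52.8 and 19.8 CPM in C-16. Groups of libraries overlapped, and WT reached from near the lowest library of all to just under the lowest OE-3 library. CATB lay between 46.6 and 57.7 CPM in CRISPR libraries, 49.6 and 68.7 CPM in OE libraries and 57.9 and 64.3 CPM in WT libraries.

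Of the 4 leaf senescence marker loci, SGR (1.38-fold), NAP (1.58-fold) and RCCR1 (1.73-fold) were called higher in OE than in CRISPR lines by edgeR. Beside these, 17.4% of all genes were called in either direction. NYC1 lay on the other side of 0 (log2 fold change -0.10) and was not called. NAP had 56.4 ± 3.0 CPM in WT (SD, n = 3 libraries), 56.7 ± 3.2 CPM in OE lines and 36.9 ± 2.1 CPM in CRISPR lines (SD, n = 3 lines). RCCR1 had 25.7 ± 5.4, 26.9 ± 2.9 and 15.7 ± 0.8 CPM in the same order. The sum of the 4 loci, of which NYC1 made up the greater share, was 273 to 342 CPM in OE, 276 to 329 CPM in WT and 255 to 314 CPM in CRISPR libraries. The part of these loci in the catalase values was not tested.

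**Figure D5:**
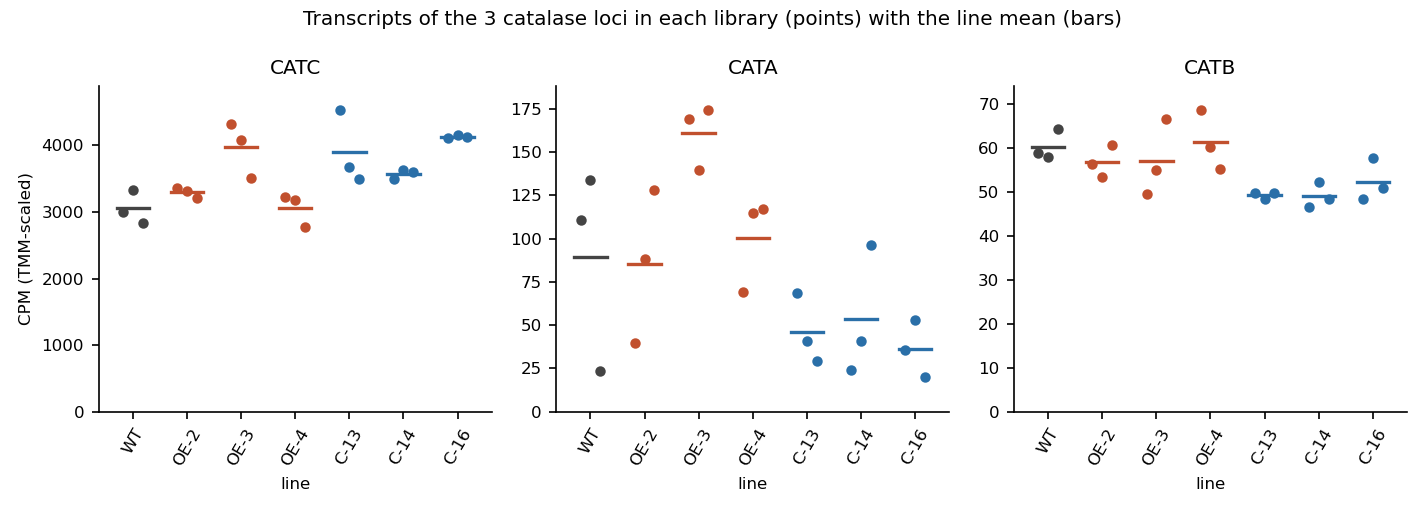
Transcript level in CPM after TMM scaling (vertical axes from 0) of the catalase loci CATC, CATA and CATB in each library (points), with line means (bars). CATC libraries of C-13, C-14, C-16 and OE-3 all lie above the WT libraries, while the CRISPR libraries of CATA lie at 19.8 to 96.1 CPM and those of OE-3 at 139.7 to 174 CPM.

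GDCP2 codes for a P protein close to that of GDCP, and the sources used here do not say how reads that map to both were counted, so both counts are uncertain. GDCP2 had fitted levels of 0.922-fold in OE lines and 1.01-fold in CRISPR lines against WT, with edgeR adjusted p = 0.583 and 0.974. The ratio of GDCP to GDCP2 was 1.32, 1.26 and 1.22 in WT and at most 1.23 in CRISPR libraries. It was 1.59, 1.49 and 1.56 in OE-2, 1.56, 1.62 and 1.51 in OE-3, and 1.45, 1.40 and 1.36 in OE-4. All 9 OE libraries lay above all WT and CRISPR libraries, and OE was apart from both groups for 0.257% of all genes set against GDCP2. Means were 1.27 ± 0.05 in WT (SD, n = 3 libraries), 1.5 ± 0.09 in OE lines and 1.18 ± 0.02 in CRISPR lines (SD, n = 3 lines), with p = 0.1 between OE and CRISPR lines by the exact permutation over lines. This p, too, follows from the separation of the libraries. The ratios of GDCP to GDCT and GDCL, and of CATC to CATA and CATB, were computed too. For each of those the OE libraries overlapped the CRISPR libraries.

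Among 27 other loci of the path, its further copies and the Calvin-Benson cycle, the one most like each gene over the 7 line means was taken by Pearson's r, as a description. AGT1 and GDCP were both most like CATA, with r = 0.91 and 0.89. GLO1 and HPR1 were both most like GDCT, with r = 0.96 and 0.98. GDCH was most like GS2 (0.93) and GLO4 most like GGT1 (0.78). CATC was most like GAPA (OS04G0459500), a chloroplast glyceraldehyde phosphate dehydrogenase (0.95), and SHM1 most like RPE (OS03G0169100), a pentose phosphate epimerase (0.95). These are 7 points each, which share libraries and scaling.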

How the data were processed

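Raw counts of reads per gene were deposited by the authors as 1 table for 21 leaf libraries. According to the submitters' processing notes, STAR 2.5.3a, Trim Galore, FastQC and DESeq2 were used and the build was IRGSP-1.0; no step is tied to a tool. The sources used here do not give the read counter, strand setting or treatment of multiply mapped reads. The main test was edgeR's quasi-likelihood F test (version 4.0.16, R 4.3.3) on the deposited counts. Genes passed filterByExpr, libraries were scaled by TMM, and 1 model held the 7 lines as groups (14 residual degrees of freedom). OE and CRISPR lines were compared on counts summed per line. SE is the absolute log2 fold change over the square root of F. Log2 CPM used a prior count of 2. Alternatives were DESeq2 1.42.0, other filters, scalings and sample sets. The fit was tested on simulated data.

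All 8 members are counted in every comparison, but values of members that were not called are given only in part. Of the other lists, up to 4 loci with the smallest adjusted p per genotype contrast are named. Members, lists and tests were chosen with earlier results of these data known. The count ratios and their alternatives were added after seeing the data. At counts of 13788243 to 19032786 per library, the spread between libraries or lines limits the precision for the 8 genes more than counting error does.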

Additional observations from a re-analysis of the deposited data

Results flagged for a closer look

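GDCT (OS04G0623800), the T protein of glycine decarboxylase, differed among the 3 OE lines by the F test of the difference itself (edgeR adjusted p = 0.0269). It had 1377, 1448 and 1384 CPM in OE-2, 1858, 1710.1 and 1516 CPM in OE-3, and 1262, 1226 and 1354 CPM in OE-4. OE-3 lay above the other OE lines without overlap. The call ended without OE-3 replicate 1 (edgeR adjusted p = 0.14), OE-4 replicate 1 (0.078) or OE-4 replicate 2 (0.0901), and with only the lines compared in the fit (0.0672).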

How the results depend on the processing

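The numbers of the 8 genes called in OE-2, OE-4 and C-14 against WT, and in OE lines against WT, stayed at 0 under every alternative run. With only the lines compared in the fit, the count fell to 0 for OE-3 and for C-16. A filter of at least 5 CPM gave 1 for C-13 and 1 among the OE lines. DESeq2 gave 1 for C-13, 2 for OE against CRISPR lines, 3 among the OE lines and 1 among the CRISPR lines. For CRISPR lines against WT, counts summed per line gave 0, as did leaving out C-16. For OE against CRISPR lines, leaving out OE-4 gave 1, and single libraries gave 5. Leaving out 1 library gave counts from 0 to 1 for OE-3, C-13, C-16, CRISPR lines, differences among the OE lines and differences among the CRISPR lines.

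With the replicate block, the count was 1 for C-13 and 1 among the OE lines, and 5 for OE against CRISPR as single libraries. The block left the other counts as they were. Same-numbered libraries had median correlations of 0.03, -0.02 and 0.02, and 7 of 21 libraries correlated best with their own number, so the numbers were not taken as pairing. The number of pairs of genes that passed the correlation test went from 0 to 7 when 1 library was left out. It was 4 without OE-2, 4 without OE-3, 0 without OE-4, 1 without C-13, 6 without C-14 and 0 without C-16. For the count ratios GDCP to SHM1, GDCP to GDCP2, and AGT1 to HPR1, SHM1, GLO1 and CATC, every OE library lay above every CRISPR library. Leaving out a library or a line therefore could not change their direction, and it gives no check of them. The cause of the shifts in the counts above was not tested. The lowest count of a member in a library was 1795, so counting error is small beside the spread between libraries.

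Counts over all genes moved more. Against WT the main counts and their ranges over the alternatives were 429 (163 to 1067) for OE-2, 3971 (161 to 4562) for OE-3, 122 (49 to 181) for OE-4, 1262 (222 to 1738) for C-13, 666 (137 to 1229) for C-14 and 1342 (331 to 1886) for C-16. They were 983 (16 to 2220) for OE lines and 2464 (306 to 3040) for CRISPR lines, with both lowest values from counts summed per line. They were 2066 (617 to 3116) among OE lines, 93 (16 to 250) among CRISPR lines and 3916 (1545 to 8910) for OE against CRISPR lines.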
